A study of Mus musculus with 7 samples.

Results

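The interferon-stimulated genes described here are 37 genes of the antiviral interferon response, matched by gene symbol among the 55364 genes of the count table, with the counts of all 3′ regions of a gene summed. All 37 were found. Each library is a 3′ RNA-seq profile of tumour-infiltrating CD4 T cells. The mice were of the C57BL/6 strain, over 8-week-old and bearing orthotopic tumours of the lung, and the cells were gated on CD45+CD3+CD4+ by FACS. The Control group (n = 5) carried the genotype I-AbF/F, floxed alleles of the MHC class II gene I-Ab. The Cre group (n = 2) carried I-AbF/F together with Col1a2-cre, a Cre driven by the promoter of the fibroblast collagen gene Col1a2, so the recombination is directed at fibroblasts and not at the sorted T cells. Both groups received tamoxifen induction. The replicates are named as biological in the series' description, and the comparison asks how tumour CD4 T cells differ when fibroblasts lack I-Ab.

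Interferons signal through receptor-bound Janus kinases. Type I interferons (IFN-α and IFN-β) activate ISGF3, a transcription factor complex that contains STAT2 and IRF9 and binds the interferon-stimulated response element (ISRE), whereas IFN-γ acts mainly through GAS elements. The induced proteins block viral replication, sense nucleic acids, conjugate the ubiquitin-like protein ISG15, or, as the immunity-related GTPases do, attack the vacuoles of intracellular parasites. In T cells the same genes mark exposure to interferon.

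The ISRE was looked up first, because it is the sequence these genes are known for. RefSeq promoters (build GRCm38.p6, 250 bases before to 50 bases after each start) were at hand for 27 of the 37 genes, and 10 had no entry. The letters GAAA, any 2 bases and GAAA again, read on either strand and with overlapping matches allowed, were present in a promoter of 11 of these 27 genes (40.7%), against 3.99% of 27025 genes with a promoter. The GAS letters TTCNNNGAA were present for 33.3% of the 27 genes against 9.55% of all genes. A match describes letters in the window and is not a measured binding site. The windows below show 1 ISRE match in capitals with 10 bases on either side, for the genes named later for a small p in Cre against Control, a high ratio in Control 2 or a high level. Irgm1 and Oas1a also had matches, which are not shown. A match on the other strand reads TTTC, any 2 bases and TTTC. Sequences run 5′ to 3′ on the strand of the gene.
Isg15: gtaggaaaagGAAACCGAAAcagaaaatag
Ifit1: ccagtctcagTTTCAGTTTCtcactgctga
Ifit3: tttaagtctgTTTCAGTTTCtactttcctc
Oas3: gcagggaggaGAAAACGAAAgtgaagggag
Bst2: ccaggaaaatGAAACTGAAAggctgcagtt
Rsad2: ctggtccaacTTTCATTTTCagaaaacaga
Ifi203: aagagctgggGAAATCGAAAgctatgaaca
Igtp: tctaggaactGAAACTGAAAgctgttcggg
Irgm2: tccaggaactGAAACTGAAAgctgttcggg
The Isg15 window lies at chr4:156200871-156200900 (minus strand), where the match starts 72 bases before the transcription start, and 2 further matches overlap it. The Ifit1 window lies at chr19:34640794-34640823 (plus strand, match 85 bases before the start) and the Ifit3 window at chr19:34583397-34583426 (plus strand, match 122 bases before). Those of Oas3 (chr5:120777715-120777744, minus strand), Bst2 (chr8:71537577-71537606, minus strand) and Rsad2 (chr12:26456553-26456582, minus strand) hold matches that start 75, 124 and 120 bases before the transcription start. The match in the Ifi203 window, chr1:173942508-173942537 (minus strand), starts 35 bases before. Igtp (chr11:58199512-58199541) and Irgm2 (chr11:58214903-58214932), neighbouring GTPase genes on the plus strand, had matches 34 and 64 bases before their starts, and their windows were identical at 29 of 30 bases.

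Library totals ranged from 1484655 to 1724346 counts across Control and were 1929899 in Cre 1 and 1449739 in Cre 2, so 3 counts, the limit that a count of 0 allows, correspond to 1.55 to 2.07 CPM (counts per 1000000 of the library total). Cre 2 had the fewest detected genes (7896) and Control 1 the most (14849). Summed over 11 T cell markers, Control libraries ranged from 5200 to 6739 CPM, beside 6480 CPM in Cre 1 and 4986 CPM in Cre 2. In Cre 2, Cd3e had 3 counts, with 51 to 405 in Control. Cd3g, Cd2, Cd28 and Lck were also lower in Cre 2 than in every Control library, and the other T cell markers lay inside the Control range. Markers of other cells were also read in the sorted libraries. The 13 macrophage and monocyte markers summed to 215 to 488 CPM in 4 Control libraries, 6863 CPM in Control 5, where Apoe alone had 10867 counts, and 584 and 391 CPM in Cre 1 and Cre 2. Outside Control 5, Ctss and Ly6c2 gave most of the sum. They stood at 411 and 170 CPM in Cre 1 and at 313 and 73.1 CPM in Cre 2. In Control 1 to 4, Ctss had 164 to 330 CPM and Ly6c2 15.1 to 124 CPM. Adgre1 and C1qc were at 0 in every library, and Lyz2, Csf1r, Cd14, Fcgr1, C1qb and Mrc1 were at 0 in both Cre libraries. For 9 fibroblast markers the sum was 2024 CPM in Cre 1 and 82.8 CPM in Cre 2, with 238 to 701 CPM in Control. Fn1 alone gave 1748 CPM of the Cre 1 sum. Dcn, at 189 CPM, was also higher in Cre 1 than in every Control library (4.71 to 158 CPM). The collagen genes Col1a1 and Col1a2 and the proteoglycan gene Bgn were lower in Cre 1 than in every Control library, at 43.5, 3.63 and 0.518 CPM. Col3a1, Lum and Pdgfra lay inside the Control range in Cre 1, and Pdgfrb was at 0 in every library. In bulk RNA, a smaller share of cells of a type and less RNA per cell cannot be told apart.

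Together the 37 genes took 0.665%, 0.868%, 0.692%, 0.575% and 0.847% of the counts of Control 1 to 5, and 0.799% and 0.462% of those of Cre 1 and Cre 2. Their summed level was 7293 ± 1252 CPM in Control (SD, n = 5) and 6304 ± 2386 CPM in Cre (SD, n = 2). Cre 1 lay inside the Control range and Cre 2 below it. The filter on low counts kept 34 of the 37 for testing. Ifi44, Oas1a and Oasl1 did not pass, and the 14 counts of Ifi44 in Control 1 were its only ones. Across all genes tested, edgeR's quasi-likelihood test with Benjamini-Hochberg adjustment called 1 gene lower in Cre and 0 higher. Of the 34 interferon-stimulated genes it called 0 higher (0.0% of all 9854 tested genes) and 0 lower (0.0101% of all). At an unadjusted p under 0.05 there were 0 higher (1.41% of all tested genes) and 3 lower (10.2% of all), namely Rsad2, Iigp1 and Herc6. DESeq2 called 0 higher (0.417% of the 8394 genes it gave an adjusted p) and 1 lower, Rsad2 (7.23% of those genes), and limma voom called 0 in either direction. The fitted log2 fold change was below 0 for 26 of the 34 (76.5%), against 60.1% of all tested genes. Its median was -0.32 for the 34 and -0.39 for all tested genes. The 3 genes at 0 in both Cre libraries stay below this median when set at their bounds. At a mean of at least 100 CPM, where counting error is small, the median was -0.14 for 15 of the interferon-stimulated genes and -0.01 for all genes.

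**Figure D1:**
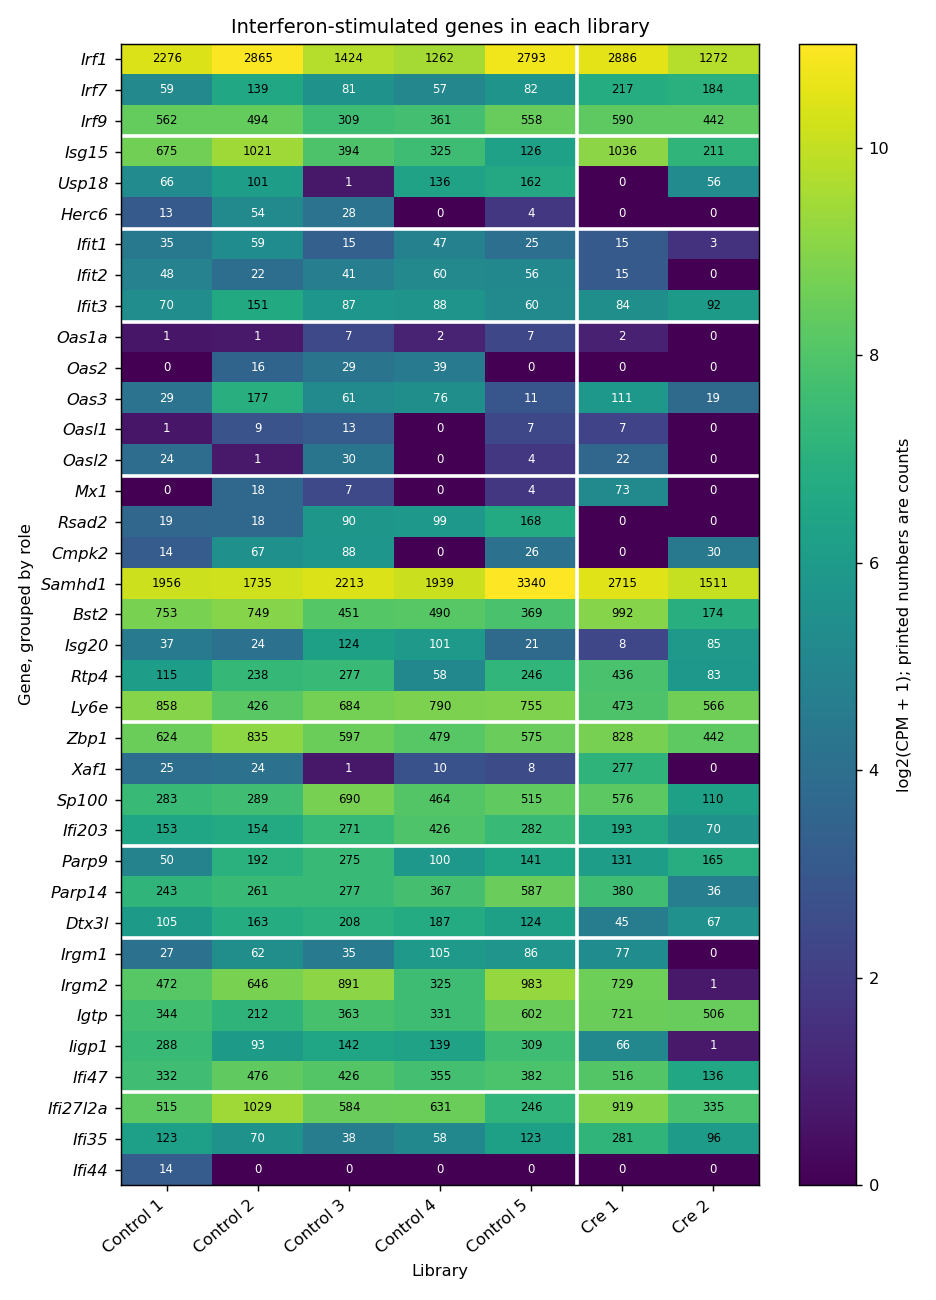
Colour shows log2(CPM + 1) of each of the 37 genes (rows, grouped by role with white lines between groups) in each of the 7 libraries (columns, Control left of the white line and Cre right of it), and the printed numbers are counts. Samhd1 and Irf1 are bright in every library, Rsad2 is dark in both Cre libraries, and Iigp1 and Irgm2 are dark in Cre 2.

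The transcription factors of the response were well covered. Irf1, an IFN-γ-induced activator, had 1350, 1930, 876, 732 and 1716 CPM in Control 1 to 5 and 1495 and 877 CPM in Cre 1 and Cre 2, both within the Control range. Irf9, the DNA-binding subunit of ISGF3, stood at 282 ± 75.2 CPM in Control (SD, n = 5) and 305 ± 0.589 CPM in Cre (SD, n = 2). Irf7, which amplifies type I interferon production and is itself induced by ISGF3, had 35.0, 93.6, 49.8, 33.1 and 50.4 CPM in Control 1 to 5 and 112 and 127 CPM in Cre 1 and Cre 2. It was the 1 gene of the 34 (2.94%, against 4.05% of all tested genes) with both Cre libraries above the whole Control range. The fitted log2 fold change of Irf7 was 1.20 ± 0.77 (SE), which edgeR's quasi-likelihood test did not call (adjusted p = 0.514, Benjamini-Hochberg).

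Irf7 was counted in several 3′ regions, and these differed between libraries. The main region, chr7:141262457-141263431 (mm10, minus strand), held 45, 66, 81, 57 and 82 counts in Control 1 to 5 and 207 and 181 in Cre 1 and Cre 2. A second region, chr7:141263456-141263972, held 73 of its 99 counts in Control 2, 13 in Control 1 and 0 in Control 3 to 5. From the main region alone Control 2 had 44.5 CPM and Control 5 50.4 CPM, so that Control 2 was no longer the highest, while Cre 1 and Cre 2, at 107 and 125 CPM, remained above every Control library. This reading by main region was added after the values had been seen. Irf7 also overlaps the antisense gene Phrf1, and the strand setting of the counting is not given in the sources used here.

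In the ISG15 system, Isg15, the ubiquitin-like modifier, had 400, 688, 242, 188 and 77.4 CPM in Control 1 to 5 and 537 and 146 CPM in Cre 1 and Cre 2. Its Control libraries differed by up to 8.88 times and enclosed both Cre libraries. Usp18, the protease that removes ISG15 and dampens type I receptor signalling, had 66, 101, 1, 136 and 162 counts in Control 1 to 5 and 0 and 56 in Cre. One Control library thus came close to the 0 of Cre 1. For Herc6, the main ISG15 ligase in mice, the counts were 13, 54, 28, 0 and 4 in Control 1 to 5, with 0 in both Cre libraries. Against the floor of 3 counts over both Cre libraries, 0.888 CPM, its Control mean of 12.8 CPM was at least 14.4-fold higher, but Control 4 was at 0 as well, and edgeR's quasi-likelihood test gave an adjusted p of 0.427 (Benjamini-Hochberg).

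The IFIT genes encode proteins that bind viral RNA. Ifit1 had 35, 59, 15, 47 and 25 counts in Control 1 to 5 and 15 and 3 in Cre, or 22.5 ± 11.7 CPM (SD, n = 5) against 4.92 ± 4.03 CPM (SD, n = 2). Ifit2 had 48, 22, 41, 60 and 56 counts across Control and 15 and 0 in Cre. Both Cre libraries lay below the Control range in CPM for both genes. With Ifit1, Control 3 and Cre 1 had the same 15 counts, and only their library totals set them apart, at 9.22 and 7.77 CPM. Ifit2 had a fitted log2 fold change of -2.76 ± 1.94 (SE), not called by edgeR's quasi-likelihood test (adjusted p = 0.573, Benjamini-Hochberg). Ifit3 was different, with 56.9 ± 25.9 CPM in Control (SD, n = 5) and 53.5 ± 14.1 CPM in Cre (SD, n = 2), and the groups overlapped. Ifit3 and Ifit2 are neighbours on chromosome 19, with 7111 bases between them. The 3 genes summed to 107 ± 29.6 CPM in Control (SD, n = 5) and 62.3 ± 4.57 CPM in Cre (SD, n = 2), with both Cre sums under the lowest Control sum.

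The OAS genes encode synthases of 2′-5′-linked oligoadenylates, which activate RNase L, and the related OASL proteins. Only Oas3 had more than 50 counts in any library, with 29, 177, 61, 76 and 11 counts in Control 1 to 5 and 111 and 19 in Cre. Its level in Control 2 was 119 CPM and in Control 5 6.76 CPM, a 17.6-fold range that enclosed both Cre libraries. In Control 2, 54 of the 177 counts came from a second region that overlaps no annotated exon. From the main region alone, Control 2 had 82.8 CPM and Control 5 6.14 CPM, still on either side of both Cre libraries. Oas2 had 0, 16, 29, 39 and 0 counts across Control and 0 in both Cre libraries, so its groups overlapped at 0. The Control mean of Oas2, 10.2 CPM, was at least 11.5-fold higher than the floor over both Cre libraries, and edgeR's quasi-likelihood test gave an adjusted p of 0.429 (Benjamini-Hochberg). Oasl2 had 24, 1, 30, 0 and 4 counts across Control and 22 and 0 in Cre. The 22 counts in Cre 1 all came from a region that overlaps no annotated exon, and the main Oasl2 region had 0 in both Cre libraries. These readings by region were added after the values had been seen. Oas1a and Oasl1 stayed at or below 13 counts in every library.

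Rsad2, which encodes viperin, an enzyme that makes a chain-terminating nucleotide, showed the clearest separation. It had 19, 18, 90, 99 and 168 counts in Control 1 to 5 and 0 in both Cre libraries. Every Control library lay above the 3 counts that a 0 allows, and the Control level of 47.9 ± 38.2 CPM (SD, n = 5) was at least 53.9-fold higher than the floor over both Cre libraries. The call depends on the tool. edgeR's quasi-likelihood test gave p = 0.00311 and an adjusted p of 0.336 (Benjamini-Hochberg), DESeq2 gave an adjusted p of 0.000865, and the authors' deposited table lists an FDR of 0.000571 for Rsad2 with a log2 fold change of -6.20. Of the 3 interferon-stimulated genes tested that were at 0 in both Cre libraries (8.82%, against 13.7% of all tested genes), Rsad2 was the one without a 0 in Control. Cmpk2, a mitochondrial nucleotide kinase whose gene lies 12751 bases from Rsad2 on chromosome 12, was counted 14, 67, 88, 0 and 26 times in Control 1 to 5, 0 times in Cre 1 and 30 times in Cre 2. The neighbours thus parted in Cre 2, where Cmpk2 was read and Rsad2 was not.

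Among the other antiviral effectors, Samhd1, a phosphohydrolase that depletes deoxynucleotides, was the most abundant of the 37. It had 1160, 1169, 1361, 1124 and 2052 CPM in Control 1 to 5 and 1407 and 1042 CPM in Cre 1 and Cre 2. Control 5 stood above the rest, and Cre 2 lay just below the lowest Control library. Ly6e, a membrane-anchored protein that modulates virus entry, had 428 ± 84.7 CPM in Control (SD, n = 5) and 318 ± 103 CPM in Cre (SD, n = 2). Bst2, or tetherin, which holds budding virions at the membrane, had 348 ± 120 CPM in Control (SD, n = 5). Its Cre libraries fell on opposite sides of the Control range, at 514 and 120 CPM. Mx1 encodes a dynamin-like GTPase that is defective in C57BL/6 mice, and it had 0, 18, 7, 0 and 4 counts in Control against 73 in Cre 1 and 0 in Cre 2. Rtp4, a negative regulator of interferon signalling, had 436 counts in Cre 1 and 83 in Cre 2 with 58 to 277 in Control. Isg20, an exonuclease, had 8 counts in Cre 1 and 85 in Cre 2 with 21 to 124 in Control.

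Of the genes of nucleic acid sensing, cell death and chromatin, Zbp1, a sensor of Z-form nucleic acid that can start necroptosis, was the steadiest, with 386 ± 105 CPM in Control (SD, n = 5) and 367 ± 87.8 CPM in Cre (SD, n = 2). Xaf1, a pro-apoptotic partner of XIAP, had 25, 24, 1, 10 and 8 counts in Control 1 to 5, 277 in Cre 1 and 0 in Cre 2. Its fitted log2 fold change of 3.08 ± 1.76 (SE; edgeR's quasi-likelihood adjusted p = 0.454, Benjamini-Hochberg) came from Cre 1, and without Cre 1, against the 0 of Cre 2, it was -6.79, which is no bound. Ifi203, of the DNA-binding PYHIN family, had 156 ± 62.6 CPM in Control (SD, n = 5) and 74.1 ± 36.6 CPM in Cre (SD, n = 2), with Cre 1 inside the Control range (log2 fold change -1.05 ± 0.64 SE; edgeR's quasi-likelihood adjusted p = 0.48, Benjamini-Hochberg). Sp100, a scaffold of PML nuclear bodies, had 283 to 690 counts in Control, 576 in Cre 1 and 110 in Cre 2.

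PARP9 and DTX3L form a ubiquitin ligase that enhances interferon signalling, and their genes lie head to head on chromosome 16 with 682 bases of overlap. Dtx3l had 62.3, 110, 128, 108 and 76.2 CPM in Control 1 to 5 and 23.3 and 46.2 CPM in Cre 1 and Cre 2, with no overlap between the groups. The fitted log2 fold change of Dtx3l was -1.47 ± 0.81 (SE; edgeR's quasi-likelihood adjusted p = 0.44, Benjamini-Hochberg). Parp9 overlapped between the groups, at 94.5 ± 55.6 CPM (SD, n = 5) and 90.8 ± 32.5 CPM (SD, n = 2). Parp14, an ADP-ribosyltransferase, had 243, 261, 277, 367 and 587 counts in Control, 380 in Cre 1 and 36 in Cre 2. Its fitted log2 fold change of -0.90 ± 0.72 (SE; edgeR's quasi-likelihood adjusted p = 0.654, Benjamini-Hochberg) rested on Cre 2, and without Cre 2 it was -0.05.

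The immunity-related GTPases are mostly induced by IFN-γ. Iigp1, an effector that loads onto parasite vacuoles, had 288, 93, 142, 139 and 309 counts in Control 1 to 5 and 66 and 1 in Cre 1 and Cre 2. Both Cre libraries lay below the Control range, and the fitted log2 fold change of -2.72 ± 1.21 (SE) had an adjusted p of 0.427 (edgeR's quasi-likelihood test, Benjamini-Hochberg). With Cre 1 left out, which leaves Cre 2 alone in its group, the fitted log2 fold change of Iigp1 was -7.26. Irgm2, a regulator of the effector GTPases, had 472, 646, 891, 325 and 983 counts in Control, 729 in Cre 1 and 1 in Cre 2. Its neighbour Igtp, another regulator, had 344, 212, 363, 331 and 602 counts in Control, 721 in Cre 1 and 506 in Cre 2 (log2 fold change 0.69 ± 0.42 SE; edgeR's quasi-likelihood adjusted p = 0.487, Benjamini-Hochberg). Irgm2 and Igtp are therefore set apart in Cre 2, although their annotated genes overlap by 7974 bases and their promoters were identical at 247 of 300 bases when aligned. Their counted 3′ regions lie 12832 bases apart, and the likeness of these regions in sequence was not examined. How the counting treated any reads that fit both copies is not given in the sources used here, so the split of reads between Irgm2 and Igtp is uncertain. Irgm1 had 27 to 105 counts in Control, 77 in Cre 1 and 0 in Cre 2, and Ifi47 had 332 to 476 in Control, 516 in Cre 1 and 136 in Cre 2. Of the 20 interferon-stimulated genes with at least 50 counts in every Control library, Iigp1 and Irgm2 had at most 1 count in Cre 2, and none did in Cre 1. Among all such genes the share was 6.27% for Cre 2 and 2.22% for Cre 1.

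The remaining interferon-induced genes have less defined roles in T cells. Ifi27l2a, which encodes a small hydrophobic protein, had 305, 693, 359, 366 and 151 CPM in Control 1 to 5 and 476 and 231 CPM in Cre. Ifi35, an adaptor that partners NMI, had 123, 70, 38, 58 and 123 counts in Control, 281 in Cre 1 and 96 in Cre 2 (log2 fold change 1.08 ± 0.84 SE; edgeR's quasi-likelihood adjusted p = 0.641, Benjamini-Hochberg). In Cre 2, 65 of the 96 counts came from a second region. From the main Ifi35 region alone, Cre 1 had 122 CPM and Cre 2 21.4 CPM, on either side of the 23.4 to 59.9 CPM of Control. This reading by region was added after the values had been seen. Ifi44 was read in Control 1 alone.

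Of the 34 tested genes, 5 had both Cre libraries below the Control range, namely Dtx3l, Ifit1, Ifit2, Iigp1 and Rsad2 (14.7%, against 10.9% of all tested genes). Ifit1 is among them although its counts were equal in Control 3 and Cre 1. The Cre libraries were unlike each other. Cre 1 was above every Control library for 7 genes (Bst2, Ifi35, Igtp, Irf7, Mx1, Rtp4 and Xaf1; 20.6%, against 17.5% of all) and below every one for 8 (23.5%, against 21.6% of all). Cre 2 was above for Irf7 alone (2.94%, against 17.7% of all) and below for 14 (41.2%, against 26.5% of all). With 2 Cre libraries and 5 Control libraries, an exact permutation test of a single gene cannot give a two-sided p under 0.0952. The fibroblast marker sum was highest in Cre 1, through Fn1, and lowest in Cre 2, and the part of these transcripts in the differences was not tested.

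**Figure D2:**
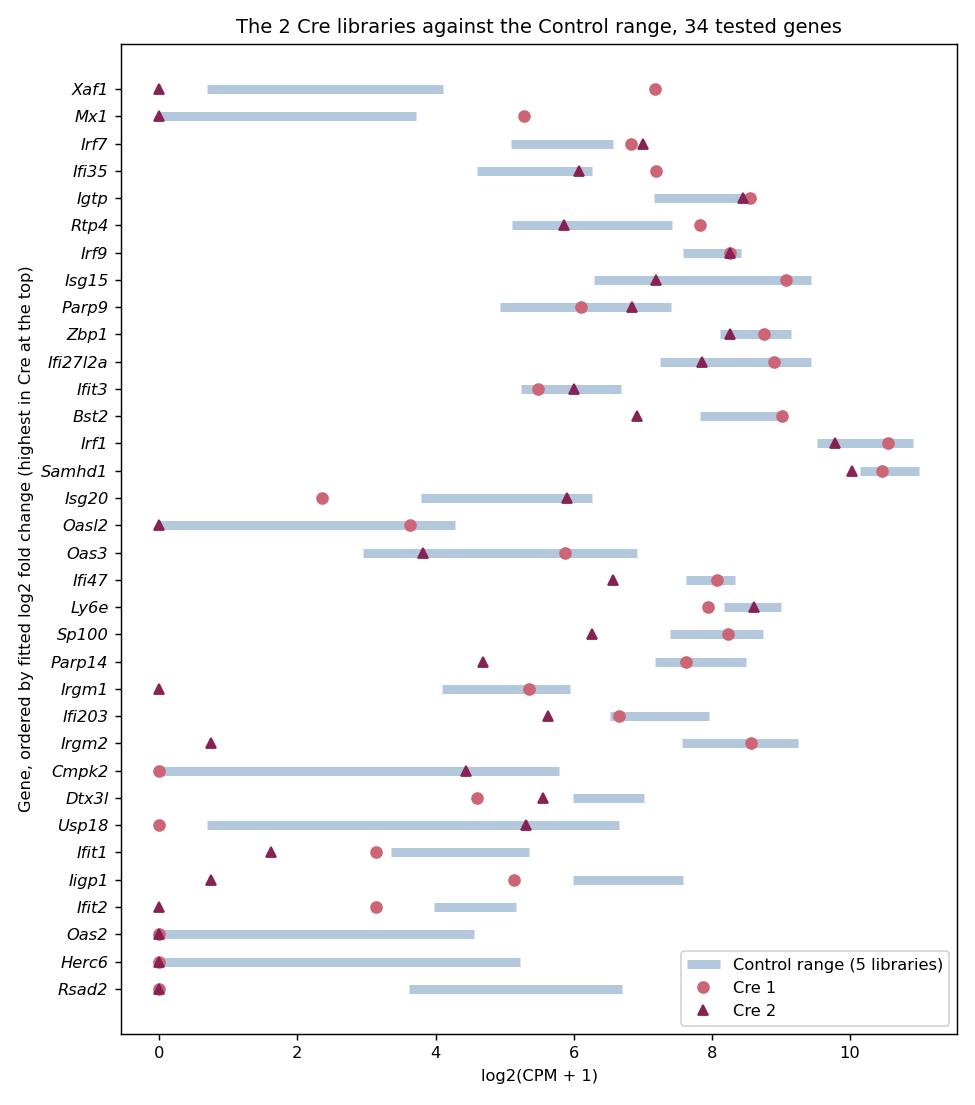
Each row is 1 of the 34 tested genes, ordered by fitted log2 fold change; the bar spans the lowest to the highest of the 5 Control libraries in log2(CPM + 1), and the circle and triangle are Cre 1 and Cre 2. Irf7 has both Cre markers to the right of its bar, Dtx3l, Ifit1, Ifit2, Iigp1 and Rsad2 have both to the left, and for Irgm2, Bst2 and Xaf1 the markers stand far apart.

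Within Control, Control 2 had been noted for its type I response in earlier work on these data, and the following values describe it without a test. Control 2 was the highest of the 5 Control libraries for 13 of the 34 tested genes (38.2%), against 19.7% of all tested genes. They were Bst2, Herc6, Ifi27l2a, Ifi47, Ifit1, Ifit3, Irf1, Irf7, Isg15, Mx1, Oas3, Xaf1 and Zbp1. Control 1 was highest for 1 gene (2.94%, against 14.5% of all), Control 3 for 7 (20.6%, against 21.5%) and Control 4 for 4 (11.8%, against 18.8%). On the scale of CPM plus 1, Control 2 stood at 6.14 times the median of the other 4 for Herc6, 5.89 times for Mx1, 4.24 times for Oas3, 3.51 times for Cmpk2 and 3.18 times for Isg15. The ratio was between 2.08 and 2.70 for Xaf1, Irf7, Ifit3, Ifit1 and Ifi27l2a. Bst2 and Parp9 followed at 1.79 and 1.78 times.

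The pattern did not extend over the whole list. Control 2 was the lowest Control library for Ifit2, Igtp, Iigp1 and Ly6e (11.8%, against 18.2% of all tested genes), and its 18 counts of Rsad2 compare with 90 to 168 in Control 3 to 5. Isg15, Oas3, Bst2, Ifit3, Ifi27l2a and Isg20 were lowest in Control 5 (17.6%, against 18.9% of all). Control 1 was lowest for 8 genes (23.5%, against 9.4% of all), Control 3 for 5 (14.7%, against 17.7%) and Control 4 for 9 (26.5%, against 19.0%). By role, the summed level in Control 2 was the highest of the 5 for 5 of the 9 groups, namely the transcription factors (2356 CPM, others 974 to 2109), the other interferon-induced proteins (740 CPM, others 227 to 400), the ISG15 system (792 CPM, others 179 to 447), the IFIT genes (156 CPM, others 86.6 to 113) and the OAS genes (137 CPM, others 17.8 to 86.1). For the immunity-related GTPases it was 1003 CPM, within the 728 to 1451 CPM of the others. Among 43 other tested interferon-induced genes, Control 2 was highest for 12 (27.9%, against 19.7% of all tested genes) and Control 3 for 17 (39.5%, against 21.5%). The 8 plasmacytoid dendritic cell markers summed to 27.6 CPM in Control 2 and 3.07 to 149 CPM in the other Control libraries, with Cox6a2, Klk1, Ly6d and Spib at 0 in all libraries. In Control 2 the whole sum came from the 41 counts of Irf8, and Siglech, Tcf4 and Ccr9 were at 0 there.

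**Figure D3:**
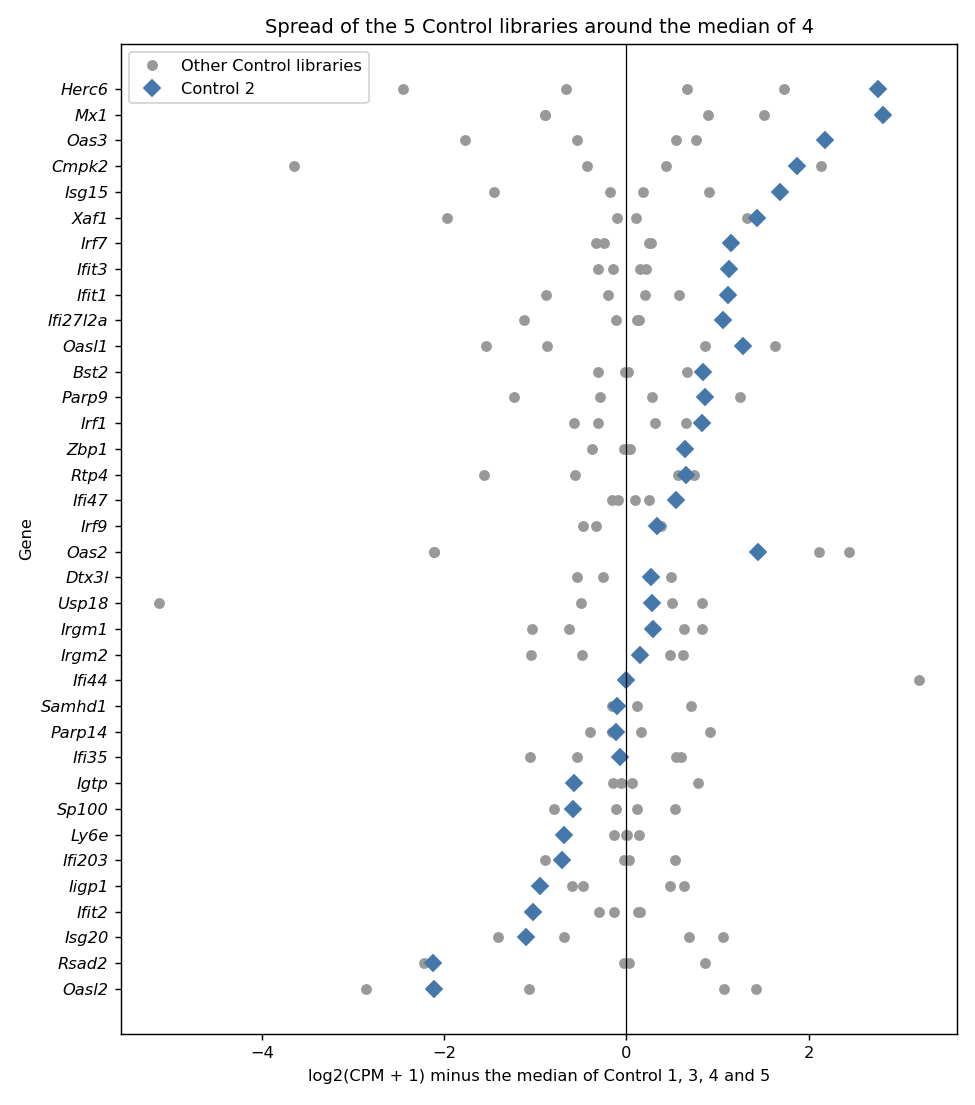
Points give log2(CPM + 1) in each Control library minus the median of Control 1, 3, 4 and 5, with genes in rows; diamonds are Control 2 and grey circles the other 4. Diamonds lie to the right for Herc6, Mx1, Oas3 and Isg15 and to the left for Ifit2, Iigp1, Igtp and Rsad2.

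Control 5 was the highest Control library for 9 of the tested genes (26.5%, against 25.5% of all), among them Rsad2, Samhd1, Parp14 and Iigp1. Its macrophage marker sum of 6863 CPM was carried by Apoe at 6676 CPM. The other markers of that list were mixed. Fcgr1 was counted in Control 5 alone, with 11 counts, whereas Ctss, at 142 CPM, was lower there than in every other Control library. Lyz2, with 12 counts, C1qa and Ly6c2 lay inside the range of the other Control libraries, and the rest were at 0 in Control 5. The part of these transcripts in the Control 5 values was not tested. At a mean of at least 100 CPM, the relative spread between Control libraries was close to that of other genes. The median coefficient of variation was 0.378 for 15 interferon-stimulated genes of that level and 0.390 for all such genes. Herc6, Mx1, Oas3 and Cmpk2, with the largest Control 2 ratios, were under 100 CPM and are not covered.

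**Figure D4:**
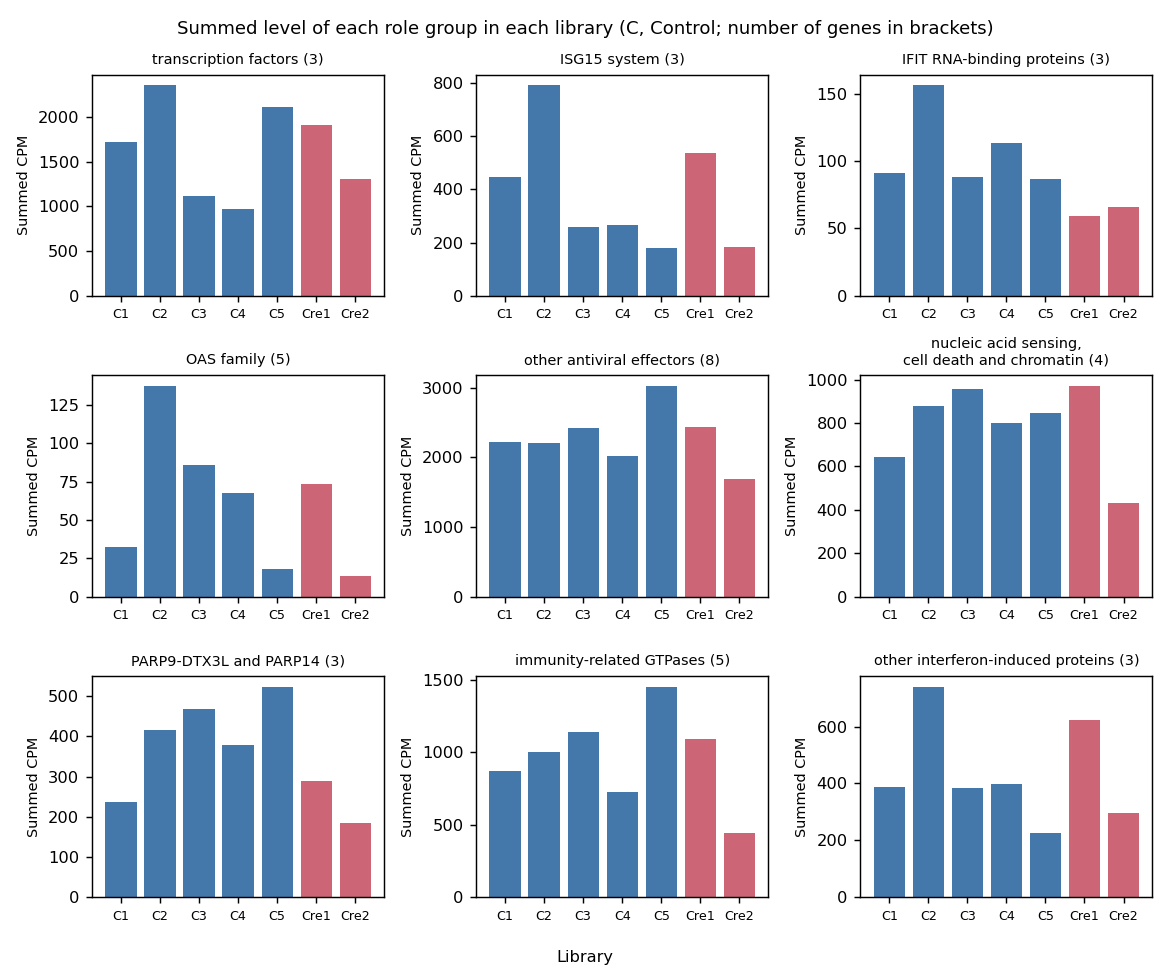
Bars give the summed CPM of each of the 9 role groups in each library (C1 to C5, Control, blue; Cre1 and Cre2, red), each panel with its own axis from 0. The ISG15, IFIT and OAS panels peak in Control 2, and Cre 2 is the lowest library for the immunity-related GTPases at 444 CPM.

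The upstream genes were read from a list of ligands, receptors, kinases, transducers, feedback inhibitors and further induced genes. Of 19 interferon genes, 18 were at 0 in all 7 libraries. Ifng, the exception, had 30, 0, 24, 0 and 43 counts in Control 1 to 5, 217 in Cre 1 and 0 in Cre 2. Control 2, with the highest Isg15, thus had no count of a listed interferon gene, which allows up to 2.02 CPM for each. Of the receptor chains, Ifnar1 had 2, 30, 3, 6 and 6 counts across Control and 2 and 0 in Cre, highest in Control 2. Ifnar2 had 54 to 238 counts in Control, 250 in Cre 1 and 0 in Cre 2, and Ifngr1 had 489 ± 218 CPM in Control (SD, n = 5) and 670 ± 1.20 CPM in Cre (SD, n = 2).

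Of the kinases, Jak1 stood at 781 ± 238 CPM in Control (SD, n = 5) and 557 ± 68.0 CPM in Cre (SD, n = 2). Tyk2, the kinase bound to IFNAR1, had 110, 84, 105, 46 and 151 counts in Control 1 to 5 and 0 and 22 in Cre, with no overlap (log2 fold change -3.02 ± 1.65 SE; edgeR's quasi-likelihood adjusted p = 0.437, Benjamini-Hochberg). Stat2 had 49, 19, 59, 1 and 178 counts across Control and 364 and 60 in Cre, with Cre 1 above every Control library. Socs1, a feedback inhibitor of the kinases, had 120 ± 38.0 CPM in Control (SD, n = 5) and 95.9 and 66.2 CPM in Cre 1 and Cre 2.

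Of the 89 listed pathway genes in the table, 62 were tested. edgeR's quasi-likelihood test called 0 higher and 0 lower after adjustment, and without adjustment 1 was higher (1.41% of all tested genes) and 4 were lower (10.2% of all) at p under 0.05. DESeq2 called 0 higher (0.417% of all) and 2 lower (7.23% of all). The median fitted log2 fold change was -0.08, and 34 of the 62 were below 0, against a median of -0.39 and 60.1% of all tested genes below 0. Adar, which edits adenosines in double-stranded RNA, had 124, 140, 229, 142 and 73 counts in Control 1 to 5 and 2 and 0 in Cre. edgeR's quasi-likelihood test gave Adar an adjusted p of 0.218 and DESeq2 one of 4.45e-05 (both Benjamini-Hochberg). Trafd1, a negative regulator of innate signalling, had 17, 71, 31, 89 and 46 counts across Control and 0 in both Cre libraries, and DESeq2 gave it an adjusted p of 0.0026. Ube2l6, the E2 enzyme for ISG15, had 5, 19, 35, 27 and 0 counts across Control and 0 in both Cre libraries. Parp12 had 7 to 99 counts across Control and 0 and 1 in Cre, and Ifih1, the RNA sensor MDA5, had 6, 28, 59, 0 and 0 in Control and 0 in both Cre libraries. Daxx, a histone chaperone of PML bodies, was the 1 pathway gene that was higher at an unadjusted p under 0.05, with 163 ± 68.2 CPM in Control (SD, n = 5) and 249 and 548 CPM in Cre (log2 fold change 1.30 ± 0.49 SE; edgeR's quasi-likelihood adjusted p = 0.422, Benjamini-Hochberg). The Cre 1 level of Daxx lay inside the Control range.

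Since the libraries capture 3′ ends, the regions counted for each gene were also compared. In 25 of the 37 genes 1 region held at least 90% of the counts, and the most counted region of all 37 touched an annotated 3′ UTR. Of the 37 genes, 8 had at least 20 counts in every library and at least 10% of their counts outside the most counted region. This comparison was added after the values had been seen. In Parp14 the share outside was 37.9%, 34.9%, 22.0% and 37.8% in Control 1, 2, 3 and 5, and in Control 4 it was 77 of 367 counts. The Cre libraries had shares of 0.263% and 0%. The second Parp14 region, chr16:35865676-35865924 (mm10, minus strand), overlaps no annotated exon and had 92, 91, 61, 77 and 222 counts across Control and 1 and 0 in Cre. The main Parp14 region, chr16:35832625-35834645, had 151, 170, 216, 290 and 365 counts across Control and 379 and 36 in Cre. In Cre 1 Parp14 was thus counted from its main 3′ end at a level inside the Control range, with a single count elsewhere.

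Sp100 showed the same order, with 48.8%, 35.6%, 45.2%, 84.7% and 61.9% outside the main region in Control 1 to 5 and 2.26% and 11.8% in Cre. Its second region, chr1:85682276-85683367 (plus strand), had 80, 97, 312, 225 and 89 counts across Control and 11 and 7 in Cre. Samhd1 went the other way, with 35.7%, 30.1%, 37.2% and 37.9% outside its main region in Control 1 to 4 and, in Control 5, all but 1838 of 3340 counts. Cre 1 and Cre 2 were higher still, at 49.1% and 48.5%. Both Cre libraries were thus below the Control range for 2 of the 8 genes and above it for 1, against 10.4% and 3.35% of the 597 genes that met the same conditions. Ifi203 was counted wholly outside its most counted region in Cre 2, with 70 counts, and by 6.27% to 35.3% in Control. No test was made of these shares.

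**Figure D5:**
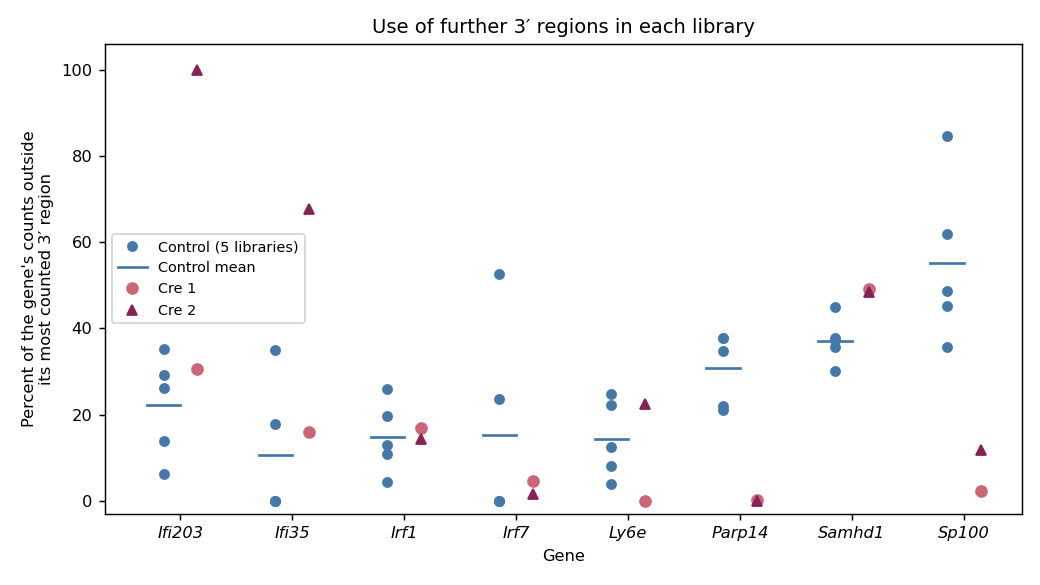
The percent of a gene's counts outside its most counted 3′ region is plotted for the 8 genes with several used regions; blue points are the 5 Control libraries, the dash is their mean, and the red circle and purple triangle are Cre 1 and Cre 2. Both Cre markers lie below the Control points for Parp14 and Sp100 and above them for Samhd1.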

How the data were processed

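Total RNA from sorted tumour CD4 T cells was profiled by 3′ RNA-seq in 7 libraries, grouped by sample title. The authors deposited whole-number read counts per 3′ region (116000 regions) with gene names, and beside them their own DESeq2 p-value, FDR and log2 fold change, per the file headers. Build mm10, HISAT2 2.1.0, FastQC 0.11.8 and DESeq2 are listed in the submitters' processing notes. For the counter, its annotation and strand setting, nothing is stated (not given in the sources used here). Counts were summed per gene. CPM are counts per 1000000 of the library total. Genes passing edgeR's filterByExpr (minimum count 10, minimum total 15) were tested, Cre against Control, with TMM normalisation and the robust quasi-likelihood test of edgeR 4.0.16 in R 4.3.3, adjusted by Benjamini-Hochberg over all 9854 genes with a threshold of 0.05. The fit was tested on simulated data. DESeq2 1.42.0, limma voom (limma 3.58.1), other scalings and filters, a replicate block and leaving out each library were alternatives. Same-numbered Control and Cre samples are not described as sharing an animal or batch, so the samples were not paired. Fold changes, SE and adjusted p are given for the 12 genes with the smallest edgeR p (for those at 0 in both Cre libraries a lower bound in place of the fitted fold change), Control 2 ratios for the 12 largest (at least 10 counts in Control 2, pseudocount 1 CPM), levels for the 6 most abundant, and for pathway genes named in a fixed list or among the 6 with the smallest p. The genes and lists were chosen with earlier results of these data known. Floors cover counting error only. SD is taken between libraries and SE comes from the quasi-likelihood fit, so both include the spread between libraries. The most counted region of each gene was related to GENCODE M21 exons. A gene of the pathway list is not reported here.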

Additional observations from a re-analysis of the deposited data

Results flagged for a closer look

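In the 5 Control libraries, 4 of 47 values examined had a single library far from the others by Dixon's criterion (0.71 for 5 samples), which chance alone passes in about 1 in 20 groups. Ifit3 stood at 101.7 CPM in Control 2, with 53.5 CPM as the next highest. Irf7 stood at 93.6 CPM in Control 2, with 50.4 CPM next, and 73 of its 139 counts there came from its second 3′ region. Ifi44 stood at 8.3 CPM in Control 1, from 14 counts, and at 0 in the other 4 Control libraries. Samhd1 stood at 2052 CPM in Control 5, with 1361 CPM next; the macrophage marker sum was also highest in that library, and its part in the value was not tested.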

How the results depend on the processing

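With edgeR's quasi-likelihood test, 0 interferon-stimulated genes were called higher or lower under TMM, size-factor or upper-quartile scaling, with no filter (37 tested) and with the stricter filter. DESeq2 called 1 lower (Rsad2). Leaving out 1 Control library at a time gave 0 called higher or lower. Leaving out a Cre library leaves 1 library in that group, so calls from those fits are not given. The pathway genes gave 2 lower with DESeq2 (Adar and Trafd1) and 0 with 1 Control library left out. Counts of genes with the Cre group above the Control range ran from 1 to 7 and below it from 5 to 15, the highest being reached without Cre 2 and without Cre 1; without Control 5, 2 genes were above. Genes highest in Control 2 ran from 13 to 18, and from the most counted region alone, added after seeing the data, they were 12. Leaving out a library can only keep or raise these counts and those above and below the Control range. Their lowest values over the omissions were therefore fixed in advance. The Control sum was 6946 to 7680 CPM over the omissions and 5920 CPM without Samhd1, and the Cre sum 4617 to 7991 CPM. The log2 fold change of Xaf1 reversed to -0.99 with the replicate block and ran from -6.79 to 4.10 over the omissions. In the block fit, Control 3 to 5 have no Cre partner, so the effect rests on Control 1 with Cre 1 and Control 2 with Cre 2. For Xaf1 these pairs had 25 and 277 counts, and 24 and 0 counts. The replicate block called 0 of the 34 genes and 5 genes in all, but it leaves little from which to estimate the spread between libraries. Same-numbered samples had deviations from their group means correlated at 0.00386 and 0.00264. With 2 Cre libraries, the deviations of Cre 1 and Cre 2 are opposite by construction. These correlations therefore cannot decide whether same-numbered samples share an animal or batch. Over all genes the median was -0.39 with TMM, -0.29 with size factors and -0.49 with upper quartiles, against -0.32, -0.22 and -0.46 for the interferon-stimulated genes, of which 26, 22 and 27 were below 0. Without Cre 2, 16 of 35 were below 0, with a median of 0.10 (all genes -1.22), and without Cre 1, 28 of 35 with a median of -1.36 (all genes -2.40). With 2 Cre libraries that differ from each other, most values of the Cre group rest on single libraries, and genes under about 2 CPM could not be told from 0.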
